A study of Homo sapiens with 8 samples.

Results

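The genes described here are 40 genes of nucleolar ribosome biogenesis, among 16608 genes that had counts in all 8 libraries. They were taken by name from a list, were followed by gene identifier, and all 40 passed the filter on low counts. They comprise 5 genes of RNA polymerase I, 7 of small nucleolar ribonucleoproteins (snoRNPs), 12 of small subunit assembly, 13 of large subunit assembly, and 3 abundant nucleolar proteins. The cells were SupB15, an established human line of Philadelphia chromosome positive precursor B-cell acute lymphoblastic leukemia. The series names 1035 as an inhibitor of histone deacetylases (HDACs), which take acetyl groups off histones. The anthracycline doxorubicin traps topoisomerase II on DNA.

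The 4 groups had 2 libraries each. In the combination group (1035+Doxo), 36 h of 1035 at 2 µM preceded 10 h of doxorubicin at 0.1 µM. The 1035 group had 46 h of 1035 at 2 µM, the Doxo group had 10 h of doxorubicin at 0.1 µM, and the control group had 46 h of the solvent DMSO. No source used here gives whether 1035 was still in the medium while the combination cells were in doxorubicin, and the 10 h of doxorubicin and the 46 h of DMSO differ in length. Both samples of a treatment were independent, per the series' design text. All cells were of 1 line, so the p-values speak to the spread between samples of this line. Libraries held between 11760542 and 18144670 counted reads. Ribosomal RNA was removed before sequencing, so the product of this pathway was not itself measured.

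Ribosomes are made in the nucleolus, where RNA polymerase I transcribes a long precursor of ribosomal RNA. SnoRNPs modify this precursor, and large sets of assembly factors fold it, cut it and join it to ribosomal proteins, with separate factors for the small and the large subunit. Growing cells, leukemic blasts among them, put much of their transcription into this pathway, and MYC is a textbook activator of its genes through the E-box motif CACGTG.

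The promoters of many members held this motif. The search used RefSeq promoter windows (GRCh38.p14) of 250 bases before to 50 bases after each start site, in which 33 members had a window, and CACGTG reads alike on both strands. The motif stood in 16 of these 33 members (48.5%), against 12.4% of the 9498 tested symbols with a window and 8.77% of all 27305 symbols. Other ribosome biogenesis genes, which are not members, held the motif in 29 of 111 with a window (26.1%). The difference between these shares was not tested. In 15 of the 16 members with the motif it began between 20 bases before and 45 bases after the start site. BOP1, NOLC1, NOP58, POLR1E, RRP12, RRP1B and RRS1 had no window in this table. The 4 members with the motif whose RNA fell most after 1035 (PNO1, LYAR, UTP20 and MRTO4) and the 2 whose RNA moved least (NAT10 and FBL) are printed here so that their sites can be compared. Each stretch has 30 bases, 5′ to 3′ on the strand of the gene, with the motif in capitals.
PNO1: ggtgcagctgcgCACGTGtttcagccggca
LYAR: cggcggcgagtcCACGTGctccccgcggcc
UTP20: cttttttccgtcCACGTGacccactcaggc
MRTO4: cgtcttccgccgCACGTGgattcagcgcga
NAT10: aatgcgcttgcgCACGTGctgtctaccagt
FBL: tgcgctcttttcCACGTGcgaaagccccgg
The stretches lie at chr2:68157885-68157914 (plus strand) for PNO1, chr4:4290068-4290097 (minus strand) for LYAR, chr12:101280083-101280112 (plus strand) for UTP20, chr1:19251807-19251836 (plus strand) for MRTO4, chr11:34105602-34105631 (plus strand) for NAT10 and chr19:39846356-39846385 (minus strand) for FBL. The first base of the motif was base +10 of PNO1, -64 of LYAR, -10 of UTP20, +15 of MRTO4, -15 of NAT10 and +7 of FBL, counted from +1 at the start site. A match of letters is not a measurement of binding.

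Most genes of the pathway were modestly lower after 1035. In 1035 against DMSO, 33 of 40 members were lower and 1 (WDR74) was higher at a false discovery rate of 0.05 (quasi-likelihood F-test of edgeR, Benjamini-Hochberg adjustment over 16320 genes). Of all genes tested, 24.8% were lower and 24.2% were higher in this comparison, and 27.7% of genes with a mean count of at least 50 were lower. The median log2 fold change was -0.38 over the 40 members and 0.01 over all genes, and the members ranged from -0.78 for PNO1 to 0.17 for WDR74. Only 5 members fell by at least 1.5-fold, namely PNO1, LYAR, UTP20, MRTO4 and EBNA1BP2. POLR1A, POLR1E, FBL, BOP1, PPAN and RRP1B did not pass the test. In bulk RNA such as this, fewer cells of a kind and less RNA per cell cannot be told apart.

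Single libraries showed the same division. Levels are given as CPM, counts scaled to a common effective library size. Taken as a percent of each gene's DMSO mean, the median member stood at 76.9% and 75.4% in the 1035+Doxo libraries, 76.1% and 79.0% in the 1035 libraries, 99.2% and 94.9% in the Doxo libraries, and 100.3% and 99.7% in the DMSO libraries. The 4 libraries with 1035 lay below all 4 libraries without it for 34 members, and above them for WDR74. Over all genes tested, 24.7% had the 4 libraries with 1035 below the other 4, and 24.5% had them above. The libraries of POLR1A, POLR1E, FBL, PPAN and RRP1B overlapped.

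**Figure D1:**
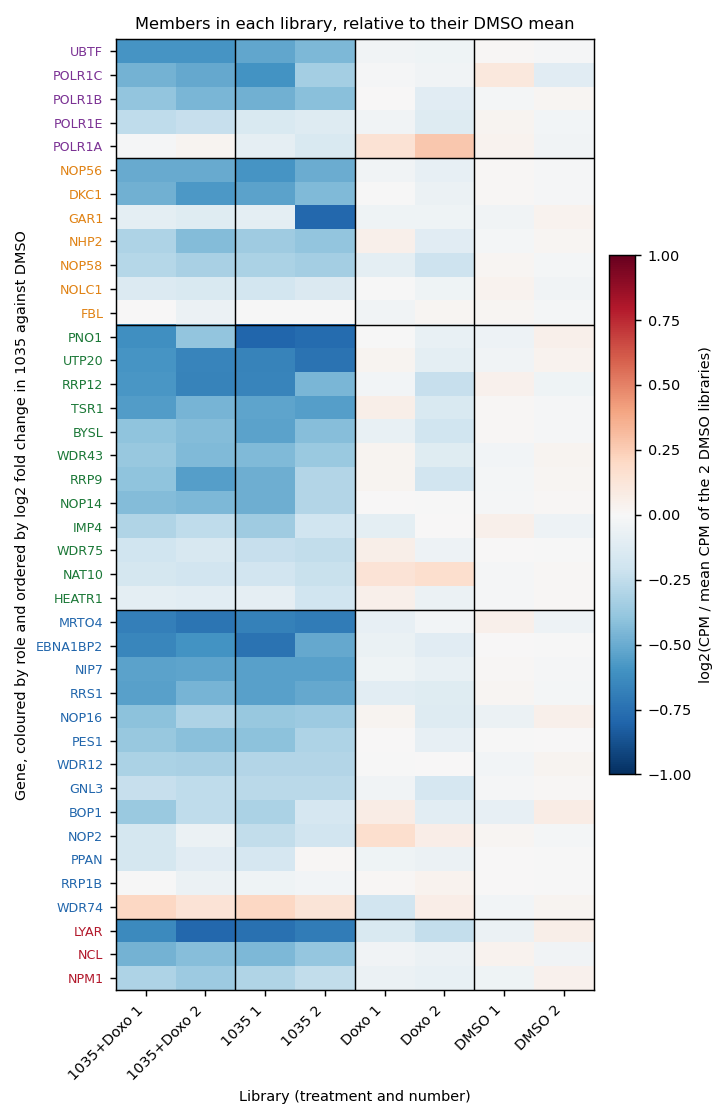
Level of each of the 40 genes in each library as log2 of its CPM over its mean in the 2 DMSO libraries (colour scale), with genes grouped by role and libraries in columns. The 4 libraries with 1035 are blue for most genes (median 75.4% to 79.0% of the DMSO mean), while the Doxo libraries stay near white (94.9% and 99.2%).

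Of the 5 members that transcribe ribosomal DNA, UBTF had the largest fall. UBTF, which bends the ribosomal DNA promoter and recruits the polymerase, had 166 and 165 CPM in 1035+Doxo, 174 and 183 CPM in 1035, 243 and 242 CPM in Doxo, and 251 and 248 CPM in DMSO. The libraries with 1035 did not overlap those without, and the log2 fold change of 1035 against DMSO was -0.48 ± 0.06 (SE here and below; adjusted p = 3.6e-09, edgeR). POLR1B, the second largest subunit, and POLR1C, a subunit shared with RNA polymerase III, fell by similar amounts, with log2 fold changes of -0.45 ± 0.06 and -0.47 ± 0.09. Subunits of the polymerase had unequal values, and POLR1A, its largest and catalytic subunit, had 119 and 122 CPM in 1035+Doxo, 112 and 108 CPM in 1035, 132 and 144 CPM in Doxo, and 123 and 116 CPM in DMSO. For POLR1A the log2 fold change of 1035 against DMSO was -0.12 ± 0.06 (adjusted p = 0.11, edgeR), with both Doxo libraries above the other 6. POLR1E, another subunit particular to this polymerase, had -0.14 ± 0.08 (adjusted p = 0.14, edgeR).

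Among snoRNP genes, 6 of 7 were lower after 1035 and FBL stood apart. The core proteins of box C/D snoRNPs, which guide methylation of ribosomal RNA, are NOP56, NOP58 and the methyltransferase FBL. NOP56 had 310.1 and 310.1 CPM in 1035+Doxo, 292 and 311.5 CPM in 1035, 429 and 414 CPM in Doxo, and 443 and 436 CPM in DMSO. FBL had 83.1 and 79.2 CPM in 1035+Doxo, 82.2 and 82.2 CPM in 1035, 80.5 and 83.9 CPM in Doxo, and 83.8 and 81.5 CPM in DMSO. So the libraries of NOP56 separated by 1035, whereas those of its partner FBL overlapped in all groups. The log2 fold change of 1035 against DMSO was -0.54 ± 0.06 for NOP56 (adjusted p = 1.7e-10, edgeR) and -0.01 for FBL, whose 95% interval ran from -0.14 to 0.12 (adjusted p = 0.94, edgeR). NOP58 had -0.33 ± 0.06. Exons of NOP56 and NOP58 contain snoRNA genes, but no such snoRNA had more than 149 counts in a library.

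The members among the H/ACA snoRNP genes, whose complex converts uridine to pseudouridine, were DKC1, NHP2 and GAR1. DKC1, the pseudouridine synthase, had a log2 fold change of -0.49 ± 0.06, and NHP2, an RNA-binding core protein, had -0.37 ± 0.08. NOLC1, a chaperone of snoRNPs, had a smaller one of -0.17 ± 0.06 (adjusted p = 0.015, edgeR), which did not pass under 4 of 17 other settings. GAR1, a further H/ACA core protein, had 8.21 and 8.10 CPM in 1035+Doxo, 8.20 and 5.12 CPM in 1035, 8.56 and 8.56 CPM in Doxo, and 8.61 and 9.0 CPM in DMSO. Its fall of 0.39 ± 0.16 on the log2 scale (adjusted p = 0.0496, edgeR) thus rested on the second 1035 library, and it did not pass under 11 of 17 other settings, with adjusted p between 0.00179 and 0.694.

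All 12 genes of small subunit assembly were lower in 1035 against DMSO, with a median log2 fold change of -0.40. PNO1, an RNA-binding factor of late small subunit maturation, had the largest fall of the 40. It had 27.1 and 31.6 CPM in 1035+Doxo, 24.0 and 24.4 CPM in 1035, 41.4 and 39.5 CPM in Doxo, and 40.03 and 43.1 CPM in DMSO. The libraries with 1035 were all below those without, and the log2 fold change of 1035 against DMSO was -0.78 ± 0.09 (adjusted p = 2.1e-09, edgeR). UTP20, a large scaffold protein of the small subunit processome, followed with -0.70 ± 0.06 (adjusted p = 4.1e-12, edgeR). RRP12 (-0.56 ± 0.07), a factor of export and maturation, TSR1 (-0.54 ± 0.06), a GTPase-like assembly factor, and BYSL (-0.48 ± 0.09), the bystin protein needed for small subunit assembly, were lower by about as much as NOP56. WDR43 (-0.41 ± 0.06), RRP9 (-0.39 ± 0.09), NOP14 (-0.39 ± 0.06) and IMP4 (-0.28 ± 0.07), all parts of the processome, formed the middle of the list.

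The smallest falls of this role were those of WDR75, NAT10 and HEATR1. WDR75 and HEATR1 are also parts of the processome, and NAT10 acetylates cytidines of ribosomal RNA. HEATR1 had 286 and 285 CPM in 1035+Doxo, 288 and 267 CPM in 1035, 316 and 294 CPM in Doxo, and 303 and 309 CPM in DMSO. Its libraries with 1035 lay below those without by a narrow margin, and the log2 fold change of 1035 against DMSO was -0.14 ± 0.06 (adjusted p = 0.043, edgeR), a call lost under 8 of 17 other settings. WDR75 had -0.24 ± 0.06 and NAT10 -0.21 ± 0.06.

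Of the 13 genes of large subunit assembly, 9 were lower, 1 was higher and 3 did not pass in 1035 against DMSO. MRTO4, a factor of late large subunit maturation, had 48.8 and 47.3 CPM in 1035+Doxo, 49.2 and 48.5 CPM in 1035, 74.3 and 77.0 CPM in Doxo, and 81.2 and 75.9 CPM in DMSO. Its 2 sets of libraries were well separated, and 1035 against DMSO gave -0.68 ± 0.07 on the log2 scale (adjusted p = 1.8e-10, edgeR). EBNA1BP2 (-0.62 ± 0.07), NIP7 (-0.54 ± 0.07) and RRS1 (-0.53 ± 0.09), assembly factors of the precursor of the large subunit, came next. The PeBoW complex, which is needed for cutting the precursor of large subunit RNA, was lower in 2 of its 3 genes, PES1 (-0.36 ± 0.06) and WDR12 (-0.29 ± 0.07). The remaining gene of the complex, BOP1, had -0.24 ± 0.10 and missed the threshold (adjusted p = 0.053, edgeR), but passed without the first DMSO library (adjusted p = 0.0458) and without the second 1035 library (adjusted p = 0.046). NOP16 (-0.37 ± 0.08), a nucleolar assembly factor, GNL3 (-0.27 ± 0.06), the GTPase nucleostemin, and NOP2 (-0.22 ± 0.06), a methyltransferase of ribosomal RNA, completed the genes that fell. RRP1B, a nucleolar protein that also binds chromatin, had a log2 fold change of -0.04, with a 95% interval from -0.15 to 0.08. PPAN, a homolog of a yeast large subunit factor, had -0.07, with a 95% interval from -0.21 to 0.06. PPAN shares 1447 exon bases with the readthrough gene PPAN-P2RY11, which had 847 to 1339 counts per library, so its own share of reads is uncertain.

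**Figure D2:**
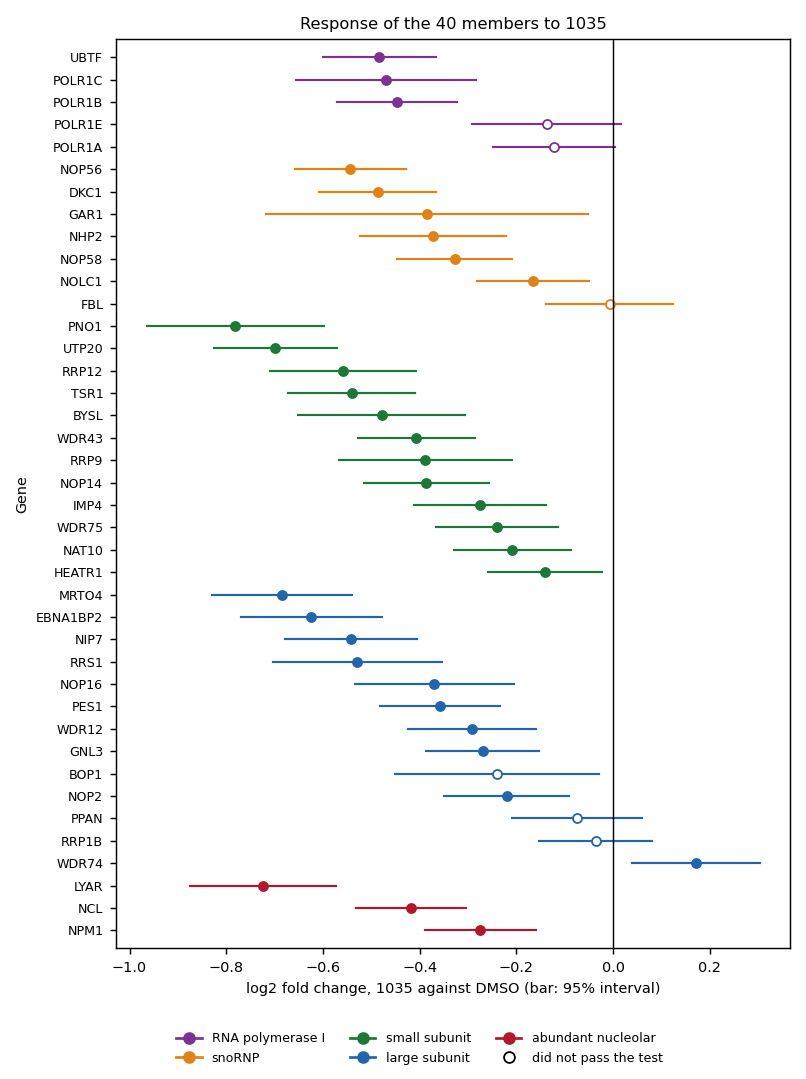
Log2 fold change of the 40 genes in 1035 against DMSO with 95% intervals, in colours by role, with open circles for genes that did not pass the test. The points run from -0.78 for PNO1 to 0.17 for WDR74, and FBL lies at -0.01.

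WDR74, a factor of large subunit maturation, was the only member counted higher, and most of its counts equalled those of another gene. It had 503 and 478 CPM in 1035+Doxo, 504 and 477 CPM in 1035, 382 and 457 CPM in Doxo, and 427 and 445 CPM in DMSO, and its log2 fold change of 1035 against DMSO was 0.17 ± 0.06 (adjusted p = 0.028, edgeR). The snRNA gene RNU2-2P shares 191 exon bases with WDR74 on the same strand in GENCODE 29. RNU2-2P had 4697 to 6047 counts per library, where WDR74 had 5657 to 6998, and RNU2-2P itself rose after 1035, by 0.28 ± 0.10 on the log2 scale (adjusted p = 0.040, edgeR). No source used here gives whether each of these reads was also counted for WDR74. If the counts of RNU2-2P are taken off, WDR74 is left with 70.7 and 68.0 CPM in 1035+Doxo, 68.5 and 65.8 CPM in 1035, 87.1 and 77.6 CPM in Doxo, and 85.3 and 87.0 CPM in DMSO. In that remainder all 4 libraries with 1035 were below all 4 without. Tested on the remainder, a choice made after seeing the data, the log2 fold change of WDR74 in 1035 against DMSO was -0.36 (adjusted p = 3.35e-05, edgeR), so the direction of this gene depends on how its overlap is counted. The rise also missed the threshold when either DMSO library or the first 1035 library was left out, with adjusted p of 0.197, 0.060 and 0.186.

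**Figure D3:**
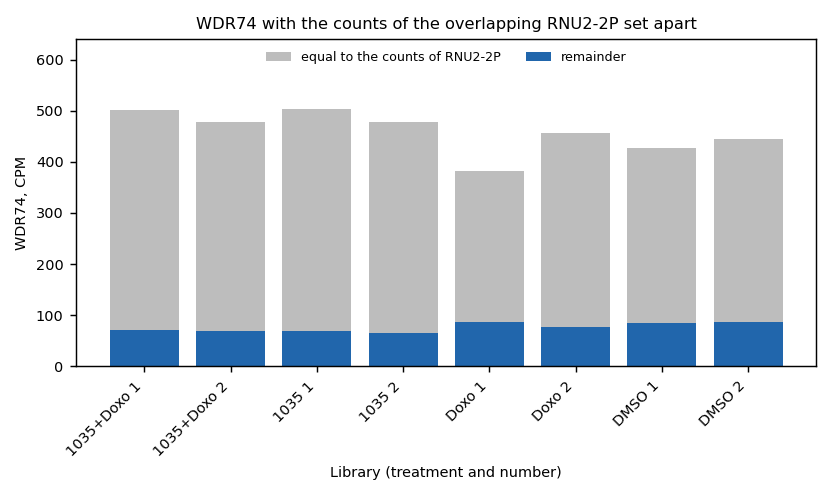
CPM of WDR74 in each library, split into the amount equal to the counts of the overlapping RNU2-2P (grey) and the remainder (blue). The grey part makes up most of each bar, and the remainder is 65.8 to 70.7 CPM in the 4 libraries with 1035 and 77.6 to 87.1 CPM in the 4 libraries without.

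All 3 abundant nucleolar proteins fell. NCL, or nucleolin, a multifunctional RNA-binding protein of the nucleolus, had 658 and 681 CPM in 1035+Doxo, 671 and 698 CPM in 1035, 890.0 and 875 CPM in Doxo, and 938 and 890.2 CPM in DMSO. NPM1, or nucleophosmin, a histone and ribosome chaperone, had 461 and 443 CPM in 1035+Doxo, 462 and 482 CPM in 1035, 548 and 541 CPM in Doxo, and 555 and 587 CPM in DMSO. LYAR, a zinc finger protein of the nucleolus, had 50.3 and 45.4 CPM in 1035+Doxo, 46.6 and 48.2 CPM in 1035, 70.3 and 66.6 CPM in Doxo, and 75.2 and 81.4 CPM in DMSO. In each of the 3 genes the libraries with 1035 were all below those without. The log2 fold change of 1035 against DMSO was -0.42 ± 0.06 for NCL (adjusted p = 5.9e-08, edgeR), -0.27 ± 0.06 for NPM1 (adjusted p = 8.6e-05, edgeR) and -0.72 ± 0.07 for LYAR (adjusted p = 1.3e-10, edgeR). NPM1 has 45 pseudogenes in GENCODE 29, of which 6 had counts in all libraries, at most 433 in a library against at least 5366 for NPM1.

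**Figure D4:**
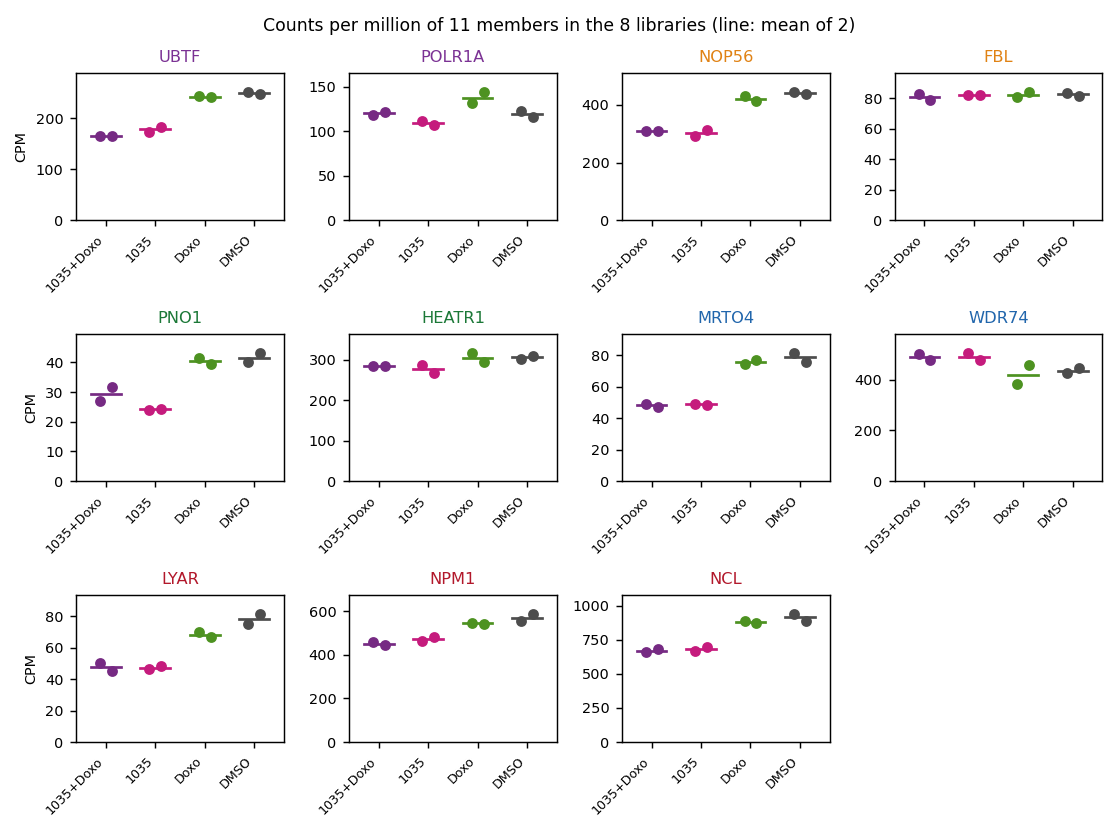
CPM of 11 genes in each library (points) with the mean of 2 libraries (lines), by treatment, each panel with its own axis starting at 0. UBTF, NOP56, PNO1, MRTO4, LYAR, NPM1 and NCL are lower in both treatments with 1035, FBL is level at 79.2 to 83.9 CPM, and POLR1A is highest in the Doxo libraries.

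Set on a scale per length, the members spanned a wide range of levels. In the authors' FPKM values (counts scaled to gene length and depth), NPM1 averaged 125 ± 4.13 in 1035 and 144 ± 6.11 in DMSO (SD, n = 2 each), and NCL averaged 99.9 ± 3.21 in 1035 and 127 ± 4.32 in DMSO. GNL3 averaged 81.6 ± 0.444 FPKM in 1035 and 93.9 ± 1.44 FPKM in DMSO, and NOP56 averaged 64.0 ± 3.26 FPKM in 1035 and 89.1 ± 0.711 FPKM in DMSO. NPM1 and NCL thus had the highest levels per length in DMSO, and their SDs there were smaller than the gap between them. WDR74, with the overlap named above, averaged 117 ± 3.94 FPKM in 1035, above NCL there, and 99.0 ± 3.12 FPKM in DMSO, below NCL. The lowest levels in DMSO were those of POLR1A at 8.54 ± 0.296 FPKM, BOP1 at 6.0 ± 0.488 FPKM and GAR1 at 4.16 ± 0.142 FPKM.

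With doxorubicin alone, no member passed the test in the reported fit. In doxorubicin against DMSO, 0 of 40 members were called by edgeR and 0 by DESeq2, where 1.33% of all genes were called by edgeR, and 4 members had an unadjusted p under 0.05, as did 13.3% of all genes. The median log2 fold change was -0.04, with a range from -0.19 for LYAR to 0.20 for POLR1A. It was negative for 32 of 40 members, against 8403 of 16320 genes tested, a difference that was not tested. The 95% intervals of 37 members lay within a 1.25-fold change in either direction, and those of all 40 within a 1.5-fold change, the outermost bounds being -0.35 and 0.33. POLR1A came closest to a call, at 0.20 ± 0.06 (adjusted p = 0.091, edgeR), and it passed with library size as the sole scaling (adjusted p = 0.0391), among genes with a mean count of at least 50 (adjusted p = 0.0439) and without the first Doxo library (adjusted p = 0.00641). The other 3 were NOP58 at -0.15 ± 0.06, NAT10 at 0.15 ± 0.06 and LYAR at -0.19 ± 0.07, with adjusted p of 0.22, 0.22 and 0.20 in edgeR.

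Doxorubicin given after 1035 likewise left the members near their level in 1035. In the combination against 1035, 0 of 40 members were called by edgeR and 0 by DESeq2, where 0.496% of all genes were called by edgeR, and 2 members had an unadjusted p under 0.05, as did 6.8% of all genes. The median log2 fold change was 0.00 and the range ran from -0.11 for UBTF to 0.28 for PNO1. The intervals of 38 members lay within a 1.25-fold change. PNO1 (0.28 ± 0.10, adjusted p = 0.38, edgeR) and POLR1A (0.13 ± 0.06, adjusted p = 0.72, edgeR) were those with the unadjusted p under 0.05. The interval of GAR1, the member with the fewest reads, was the widest and ran from -0.07 to 0.62.

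The fall after 1035 was also present in cells that then received doxorubicin. In the combination against doxorubicin, which shares no library with 1035 against DMSO, 32 members were lower and 1 (WDR74) was higher, with 22% and 21.8% of all genes in those directions. The median log2 fold change was -0.34. Of the 33 members lower in 1035 against DMSO and the 32 lower here, 30 were lower in both, which is 90.9% of the first list and 93.8% of the second. Of all genes tested, 19.2% were lower in both. GAR1, HEATR1 and NOLC1 passed in 1035 against DMSO but not here, and POLR1A and BOP1 passed here but not there, though none of these 5 passed the test of the interaction. Over the 40 members, the log2 fold changes of these 2 comparisons had a Pearson correlation of 0.89 and a Spearman correlation of 0.89, against 0.54 and 0.78 over all genes tested. This is a description across genes, which are not independent replicates and which share library depth within each comparison. The values over all genes include genes with few reads, since 12067 of 16320 had a mean count of at least 50. No correlation was computed over those 12067 alone.

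Members with large falls in 1035 against DMSO also fell in the combination against doxorubicin, with smaller estimates for those given here except UBTF. In the combination against doxorubicin (1035 against DMSO in brackets), MRTO4 had -0.65 ± 0.07 (-0.68), UTP20 -0.59 ± 0.06 (-0.70) and UBTF -0.55 ± 0.06 (-0.48) on the log2 scale. EBNA1BP2 had -0.54 ± 0.07 (-0.62), LYAR -0.52 ± 0.08 (-0.72) and PNO1 -0.47 ± 0.09 (-0.78). The fall was larger in 1035 against DMSO for 26 members. Against DMSO, the combination had 32 members lower and 1 higher, where 24.7% of all genes were lower and 24.5% higher, at a median log2 fold change of -0.38. This comparison shares the DMSO libraries with 1035 against DMSO. In all 3 comparisons that involve 1035, 29 members were lower, as were 18.5% of all genes.

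No member had a detectable interaction, the log2 effect of 1035 with doxorubicin minus that without. Of 40 members 0 were called by edgeR and 0 by DESeq2, where 0.0184% of all genes were called by edgeR, and 2 had an unadjusted p under 0.05, as did 4.82% of all genes. The median was 0.04, with a range from -0.13 for NAT10 to 0.31 for GAR1. PNO1, with 0.31 ± 0.13 (adjusted p = 0.95, edgeR), and NOP58, with 0.17 ± 0.08 (adjusted p = 0.95, edgeR), had the 2 smallest p-values. The 95% intervals of 33 members lay within a 1.25-fold difference and those of 39 within a 1.5-fold difference, the exception being GAR1.

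**Figure D5:**
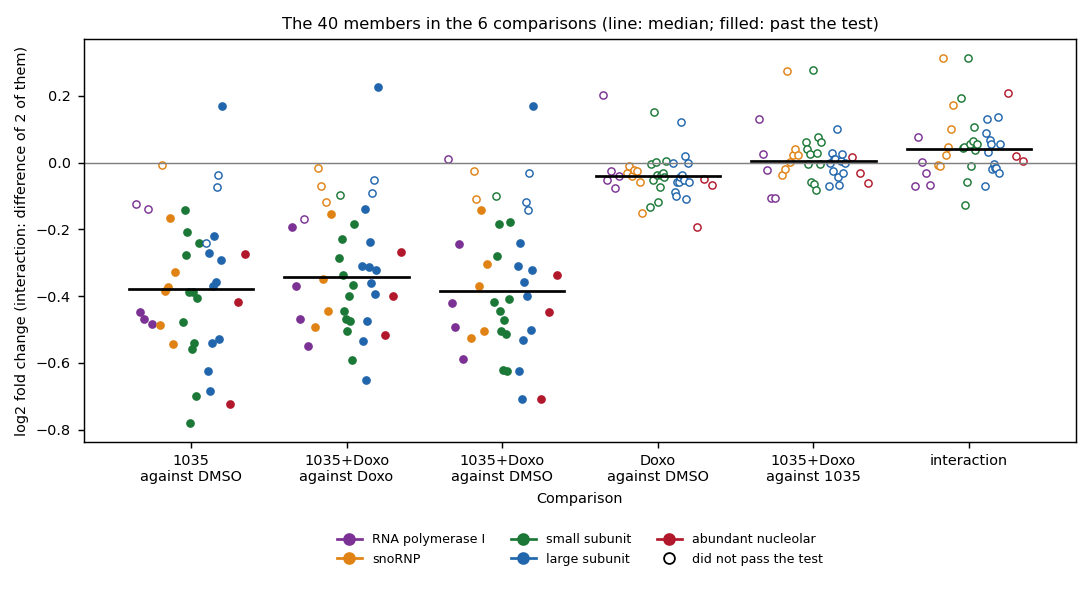
Log2 fold change of the 40 genes in each of the 6 comparisons, in colours by role, with the median as a line and filled points past the test. Medians are -0.38, -0.34 and -0.38 in the 3 comparisons that involve 1035, -0.04 in Doxo against DMSO, 0.00 in 1035+Doxo against 1035 and 0.04 in the interaction.

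Other genes of ribosome biogenesis, 137 that are not among the 40, had a smaller median fall than the 40. In 1035 against DMSO the median log2 fold change was -0.38 over the 40 members and -0.23 over these 137. Of the 137, 87 were lower, 5 were higher and 45 did not pass, where 24.8% of all genes were lower and 24.2% higher. The difference between the lists was not tested. Among genes of ribosomal DNA transcription, TAF1A, a subunit of the promoter selectivity factor, had -0.75 ± 0.10, MYBBP1A, a nucleolar regulator, -0.43 ± 0.06, and TAF1D, another subunit of that factor, -0.37 ± 0.06. In small subunit assembly, DIMT1, which methylates adenosines of small subunit RNA, had -0.81 ± 0.08, while WDR3 (-0.58 ± 0.06) and NOL6 (-0.50 ± 0.06), both processome proteins, had smaller falls. In large subunit assembly, the genes with the smallest p were the helicase DDX54 (-0.61 ± 0.06) and the assembly factors NOC3L (-0.62 ± 0.07) and BRIX1 (-0.55 ± 0.07), in a range of 54 genes from -0.65 to 0.12.

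The 5 genes that rose came from several roles. UTP3, a processome protein, rose by a log2 fold change of 0.52 ± 0.09, NOP9, a protein of small subunit assembly, by 0.39 ± 0.06, NUFIP1, a snoRNP assembly factor, by 0.38 ± 0.10, NOP10, an H/ACA core protein, by 0.31 ± 0.07 and POLR1D, a subunit shared by RNA polymerases I and III, by 0.23 ± 0.07. So 1 of the 4 core proteins of H/ACA snoRNPs rose while DKC1, NHP2 and GAR1 were lower. The fall of GAR1 rested on the second 1035 library and did not pass under 11 of 17 other settings. Among the 10 other snoRNP genes, 3 were lower and 2 were higher in 1035 against DMSO, against 24.8% and 24.2% of all genes. Their median log2 fold change was -0.08, and the lower genes were led by NHP2L1 (-0.34 ± 0.06) and ZNHIT6 (-0.33 ± 0.08). Of the 137 genes, 0 were called in doxorubicin against DMSO, in the combination against 1035 or in the interaction by edgeR or by DESeq2, with 21, 7 and 11 at an unadjusted p under 0.05 in edgeR, where 13.3%, 6.8% and 4.82% of all genes were. In the combination against doxorubicin 59 were lower and 4 higher, where 22% and 21.8% of all genes were. These 4 were 1 gene of RNA polymerase I, 2 of small subunit assembly and 1 of large subunit assembly. NOP10 and NUFIP1 were thus not among them. The rise of POLR1D in 1035 against DMSO did not pass under 3 of 17 other settings.

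Members with and without the E-box had close medians in 1035 against DMSO. Those with the motif had a median log2 fold change of -0.39 in 1035 against DMSO (range -0.78 to -0.01), with 15 of 16 lower. Members with a window but no motif had -0.37 (range -0.54 to 0.17), with 14 of 17 lower. Of all genes tested, with or without a window, 24.8% were lower. All 5 members that fell by at least 1.5-fold had the motif. The 7 members without a window are in neither set, and the largest fall among them was that of RRP12, at -0.56. The difference between these sets was not tested. FBL, whose motif begins 7 bases into the gene, was the member with the motif that did not pass. MYC had 185 and 179 CPM in 1035+Doxo, 180.1 and 183 CPM in 1035, 228 and 214 CPM in Doxo, and 225 and 225 CPM in DMSO. MYC was thus lower in the libraries with 1035, with -0.31 ± 0.06 on the log2 scale in 1035 against DMSO (adjusted p = 2.4e-05, edgeR), and its part in the fall of the members was not tested.

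Markers of the cell type also moved with 1035. All 10 markers of the B lineage had counts in every library, and their summed level was 2815 to 2919 CPM in 1035+Doxo, 2999 to 3018 CPM in 1035, 3969 to 4199 CPM in Doxo and 4082 to 4297 CPM in DMSO. Most of this drop lay in IGLL1, with 220.5 and 223 CPM in 1035+Doxo, 223 and 265 CPM in 1035, 766 and 831 CPM in Doxo and 866 and 836 CPM in DMSO, and in DNTT, with 513 and 541 CPM in 1035+Doxo, 503 and 499 CPM in 1035, 879.6 and 966 CPM in Doxo and 977 and 869 CPM in DMSO. CD79A and CD79B went the other way, with CD79A at 188 to 207 CPM in libraries with 1035 and 143 to 158 CPM in those without, and CD79B at 195 to 224 CPM in libraries with 1035 and 154 to 191 CPM in those without. Of the markers of other cells, 2 of 8 for T and NK cells, 4 of 8 for myeloid cells, 3 of 7 for stromal cells and 0 of 6 for erythroid cells had counts in all libraries, and the rest were not analysed here. The stromal markers summed to 64.7 to 67.6 CPM in 1035+Doxo, 66.0 to 72.6 CPM in 1035, 26.5 to 31.1 CPM in Doxo and 25.8 to 27.7 CPM in DMSO. Nearly all of that sum was PDGFRB, while COL1A1 and PDGFRA had at most 2.89 CPM in a library. The T and NK cell markers summed to 37.6 to 45.5 CPM in libraries with 1035 and 48.6 to 53.6 CPM in the others, and the myeloid markers to 33.0 to 39.7 CPM in libraries with 1035 and 23.8 to 27.5 CPM in the others. Of the myeloid markers, CSF1R and MPO were higher and LYZ lower in all 4 libraries with 1035 than in the others. The part of these shifts in the fall of the members was not tested.

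In the authors' deposited table of 1035 against DMSO, 32 members were lower and 1 was higher at an adjusted p under 0.05, as were 19.9% and 17.5% of its genes. In the authors' deposited table of the combination against doxorubicin, 25 members were lower and 1 was higher, as were 13.7% and 12.5% of its genes. The authors' deposited tables of the combination against 1035 and of doxorubicin against DMSO called 0 members, and 0.215% and 0.477% of their genes.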

How the data were processed

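The 8 libraries of SupB15 total RNA were prepared with a stranded kit after depletion of ribosomal RNA, per the labels' protocols. The submitters' processing notes name Novoalign 2.08.01, DESeq2 1.4.5 and the build hg19. No source used here gives the counting program or its annotation. The authors deposited 4 tables, each with raw counts per gene for 4 libraries, FPKM values scaled to gene length and reads of the table, and the authors' own log2 fold changes and adjusted p-values, per the file headers.

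The tables were joined by gene identifier. Of 17849 genes, 1241 lacked a count in some table and were left out. The 132880 counts held by 2 tables were equal. After filterByExpr removed 288 genes, 16320 were fitted by robust quasi-likelihood in edgeR 4.0.16 (R 4.3.3) to all 8 libraries with TMM scaling, 4 group means and 4 residual degrees of freedom. Two-sided F-tests took Benjamini-Hochberg adjustment over all genes, with FDR 0.05 as threshold, and were checked on simulated data. Depth ran from 11760542 to 18144670 reads, so members with few reads, such as GAR1, have wide intervals. Intervals (95%) and SEs come from that fit.

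The members, lists, roles and tests were chosen with earlier results of these data known. In each role, the members with the lowest and highest log2 fold change in 1035 against DMSO, and NCL, NPM1, FBL and POLR1A, were given in every library. In the list of 137 other genes, up to 3 genes a role with the smallest p and all that rose were named. GAR1 and MYC were given in every library besides. Overlaps with other genes came from GENCODE 29 (GRCh38) by gene name. Alternatives were other scalings, DESeq2 1.42.0, other filters on low counts, fits of the compared groups alone, a replicate term, leaving out libraries, and WDR74 without the counts of RNU2-2P.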

Additional observations from a re-analysis of the deposited data

How the results depend on the processing

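With 2 libraries a group, the limits are depth and spread. In doxorubicin against DMSO, the combination against 1035 and the interaction, the reported fit had 0 member calls that could be lost. Of 4032 results of single members under an alternative, 3920 kept their call or stayed uncalled (247 of these changed sign while past the test in neither fit), 90 lost a call, 19 gained one and 3 changed direction. These 3 were WDR74 with the counts of RNU2-2P taken off, an alternative added after seeing the data, with log2 fold changes of -0.36 in 1035 against DMSO, -0.25 in the combination against doxorubicin and -0.31 in the combination against DMSO (adjusted p = 3.35e-05, 0.00284 and 0.000216, edgeR).

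The members past the test in 1035 against DMSO numbered 34, with 30 to 35 when 1 library was left out and 31 to 34 under other settings. In the combination against doxorubicin they numbered 33, with 25 to 33 and 29 to 35, and in the combination against DMSO 33, with 28 to 33 and 28 to 35. Calls held in every setting for 29, 23 and 27 members in these 3 comparisons. NOP2, GAR1, HEATR1, NOLC1 and WDR74 lost theirs in 1035 against DMSO under at least 1 setting, NOP2 without the first DMSO library (adjusted p = 0.0565, edgeR). In the combination against doxorubicin, POLR1A, NOP58, WDR75, IMP4, BYSL, BOP1, NOP2, NOP16, GNL3 and WDR74 lost theirs, and in the combination against DMSO, POLR1E, NOLC1, WDR75, NAT10, BOP1 and WDR74. Library size as the sole scaling moved the median log2 fold change of all genes by up to 0.09.

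In doxorubicin against DMSO, 0 members passed in the reported fit, but 1 passed with library size as the sole scaling, 1 among genes with a mean count of at least 50, and 1 without the second 1035 and second Doxo libraries together. When single libraries were left out, 0 to 2 passed, with 2 (POLR1A and NOP58) without the first Doxo library. For the other 137 genes, the range over left-out libraries was 0 to 12 in doxorubicin against DMSO and 0 to 3 in the interaction, with 12 and 3 again without the first Doxo library. Over all genes, doxorubicin against DMSO called 217 genes, 134 in the fit of the compared groups alone and 33 to 1180 when 1 library was left out. The combination against 1035 called 81, with 151 in the fit of the compared groups alone and 30 to 143 without 1 library. The interaction called 3, with 16 under the replicate block, 6 without the second 1035 and second Doxo libraries together and 1 to 239 without 1 library. The cause was not tested.

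The replicate block gave the same member counts as the fit without it, 34, 0, 0, 33, 33 and 0 over the 6 comparisons. Same-numbered libraries of different groups did not deviate together, with correlations from -0.08 to 0.08 over 12067 genes. These values cannot show whether same-numbered samples were handled together.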

Other observations

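The nuclear exosome, which trims precursors of ribosomal RNA, was part of the list of other ribosome biogenesis genes and was largely lower after 1035. The set held 16 genes, of the exosome, its cofactors and the separate nucleases XRN2 and ISG20L2. Of these, 11 were lower, 0 were higher and 5 did not pass in 1035 against DMSO (edgeR, adjusted over all genes). Of all genes tested, 24.8% were lower. MPHOSPH6, a nuclear exosome cofactor, had 25.3 and 23.6 CPM in 1035+Doxo, 22.2 and 21.1 CPM in 1035, 37.3 and 39.02 CPM in Doxo, and 39.8 and 38.96 CPM in DMSO, and 1035 against DMSO gave -0.86 ± 0.09 on the log2 scale (adjusted p = 1.37e-10, edgeR). Its libraries with 1035 were all below those without. Falls were also seen in the core ring genes EXOSC5 (-0.74 ± 0.12), EXOSC6 (-0.73 ± 0.09) and EXOSC8 (-0.66 ± 0.07), while the nuclease genes EXOSC10 (-0.36 ± 0.06) and DIS3 (-0.18 ± 0.06) had smaller values. The exosome genes EXOSC9 (-0.09 ± 0.07), EXOSC7 (-0.09 ± 0.09) and EXOSC1 (-0.03 ± 0.09) did not pass. EXOSC5, EXOSC10, DIS3, EXOSC9, EXOSC7 and EXOSC1 were chosen for naming after their values were seen.

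In doxorubicin against DMSO 0 of these 16 genes passed, and 7 had an unadjusted p under 0.05 (13.3% of all genes had), with a median log2 fold change of -0.13. In the combination against doxorubicin 7 were lower and 9 did not pass, with 22% of all genes lower.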
